A study of Mus musculus with 12 samples.

Results

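MHC class I molecules show peptides from inside the cell to CD8+ T cells, and 10 genes of this route were followed in mouse bone marrow macrophages (BMMs), the precursors of osteoclasts. They were chosen by symbol, as the rows H2-K1, H2-D1, H2-T23, B2m, Tap1, Tap2, Tapbp, Psmb8, Psmb9 and Psmb10 of the gene tables, and all 10 were found among the 24421 genes listed. The values came from RNA-seq of 12 libraries in 6 conditions with 2 replicates each, and by the labels all mice were C57BL/6 and carried LysMcre, which expresses Cre from the lysozyme M promoter of myeloid cells. In the loss of function experiment, BMMs of WT mice (Mir182+/+ with LysMcre(+)) and of Mir182ΔM/ΔM mice (Mir182flox/flox with LysMcre(+)) were compared, each with no stimulation (basal) or with RANKL, the cytokine that drives osteoclast differentiation. In the gain of function experiment, basal BMMs of Control mice (LysMcre(+)) and of Mir182mTg mice (LSL-Mir182 with LysMcre(+), in which Cre removes a stop cassette before a Mir182 transgene) were compared. Bone marrow was grown with M-CSF for 3 days, and RANKL was given for 5 days. Neither the age of the mice nor how many mice went into a library is stated in the labels, and the labels do not say that the replicates came from separate mice, so the p-values measure the spread between these libraries.

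In the class I route, the proteasome cuts proteins into peptides, the TAP transporter carries the peptides into the endoplasmic reticulum, tapasin holds an empty class I heavy chain next to TAP, and a heavy chain that has bound β2-microglobulin and a peptide travels to the cell surface. In cells exposed to interferon, the proteasome takes up other catalytic subunits and becomes the immunoproteasome, whose products more often end in residues that class I molecules bind. Macrophages use the route as antigen presenting cells. H2-K1 and H2-D1 encode the classical heavy chains, H2-T23 encodes the nonclassical heavy chain Qa-1, and B2m encodes β2-microglobulin. Tap1 and Tap2 encode the subunits of the transporter and Tapbp encodes tapasin. Psmb8, Psmb9 and Psmb10 encode the immunoproteasome subunits that take the places of Psmb5, Psmb6 and Psmb7.

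The genes lie close together in the genome. Except for B2m and Psmb10, the genes are in the major histocompatibility complex on chromosome 17 of GRCm38 (mm10, GENCODE vM21): Tapbp at chr17:33915899-33929292 on the plus strand, H2-K1 at chr17:33996017-34000347 on the minus strand, and then Psmb9 at chr17:34181987-34187764 on the minus strand. They are followed by Tap1 at chr17:34187553-34197225, Psmb8 at chr17:34197721-34201454, Tap2 at chr17:34203527-34216321 and H2-D1 at chr17:35262730-35267499, all on the plus strand, and by H2-T23 at chr17:36029773-36032855 on the minus strand. B2m is at chr2:122147686-122153083 on the plus strand and Psmb10 at chr8:105935735-105938444 on the minus strand. Tap1 and Psmb9 start next to each other and run in opposite directions, and 212 exonic bases are annotated in both. The library kit named in the labels does not mark strand, so reads from these bases cannot be assigned to either gene.

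The promoters of the 2 classical heavy chains and of B2m are shown first, because they hold the same kinds of short motif in the stretch before the start site. Of the 10 genes, 9 had a window in the RefSeq promoter table (GRCm38.p6), which runs from 250 bases before to 50 bases after a start site, and Tap2 had none. Only the first window listed for a gene was used, so other start sites were not searched. The windows were searched on both strands for GGGNNTTNC (a kappaB-type motif), for GAANNGAAA or GAAANNGAA (an IRF-type motif) and for TTCNNNGAA (a GAS-type motif). Each sequence below covers base -200 to base -51 from the start site, 5′ to 3′ on the strand of the gene, with the matches in capitals.
H2-K1, chr17:34000398-34000547, minus strand: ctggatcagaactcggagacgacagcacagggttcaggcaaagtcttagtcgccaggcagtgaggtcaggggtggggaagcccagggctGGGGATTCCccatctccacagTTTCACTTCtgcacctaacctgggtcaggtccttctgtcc
H2-D1, chr17:35262894-35263043, plus strand: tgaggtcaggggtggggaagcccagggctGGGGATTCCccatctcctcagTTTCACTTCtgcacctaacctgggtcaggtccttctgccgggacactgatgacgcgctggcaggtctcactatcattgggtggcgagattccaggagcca
B2m, chr2:122147487-122147636, plus strand: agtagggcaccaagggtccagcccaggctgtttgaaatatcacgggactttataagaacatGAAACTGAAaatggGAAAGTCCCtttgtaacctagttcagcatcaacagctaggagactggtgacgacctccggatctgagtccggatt

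In H2-K1 and H2-D1 the kappaB-type match came before the IRF-type match, and in B2m the IRF-type match came first. The H2-K1 match GGGGATTCC began at base -111 and that of H2-D1 at base -171, and at the best ungapped offset 176 of 240 bases (73.3%) of the 2 windows were identical. H2-T23 held an IRF-type match and no kappaB-type match, and Psmb8 held 1 GAS-type match. The windows of Tap1, Tapbp, Psmb9 and Psmb10 held none of these letters, and those of Tap1 and Psmb9 shared 275 of their 300 bases on opposite strands. A kappaB-type match was thus in 3 of 9 windows against 15.1% of the 27025 first-listed windows of all genes, and an IRF-type match in 4 of 9 against 14.9%. A GAS-type match was in 1 of 9 against 8.47%, and the first 2 kinds together in 3 of 9 against 2.12%. A match describes the letters only.

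The microRNA that the mice lack or overexpress is shown with its seed, bases 2 to 8, in capitals, since its pairing partners were sought in the transcripts of the 10 genes.
mmu-miR-182-5p (RefSeq, GRCm38.p6): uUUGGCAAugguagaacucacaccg

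The letters that pair with the seed, TTGCCAA, were in no annotated 3′ UTR of the 10 genes, against 13.4% of the 19533 listed genes with a 3′ UTR. The letters TGCCAAA, which pair with bases 2 to 7 and end in an A, were in B2m and Psmb9 and in 14.8% of those genes.

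Before the values, the libraries were checked. Totals ran from 24951280 to 33050619 reads, so 3 reads were worth 0.0908 to 0.120 CPM (reads of a gene per 1000000 reads of the library), far under the values of the 10 genes, whose lowest was 24.1 CPM. The gene Mir182 was listed at 0 to 0.0370 CPM in the loss of function and Control libraries and at 2.39 and 4.40 CPM in the Mir182mTg libraries that carry the transgene. At the levels of the loss of function libraries it cannot check the deletion. The macrophage markers Csf1r, Adgre1, Cd68, Itgam and Cd14 were at or above 1 CPM in every library and summed to 5628 to 8412 CPM. Markers of T, B and NK cells summed to at most 0.306 CPM per list, those of erythroid and mast cells to at most 0.0802 CPM and those of dendritic cells to at most 3.45 CPM. The collagen and Pdgfrb markers of stromal cells summed to 1.36 to 19.7 CPM in the basal libraries of all genotypes, to 14.4 and 32.0 CPM in WT after RANKL and to 13.2 and 27.7 CPM in Mir182ΔM/ΔM after RANKL. The neutrophil list, of which Ly6g was not in the gene tables, summed to 40.6 to 54.2 CPM in the basal WT and Mir182ΔM/ΔM libraries and to 3.07 to 12.3 CPM after RANKL. It summed to 17.3 and 21.7 CPM in Control and to 47.9 and 59.5 CPM in Mir182mTg. The osteoclast markers Acp5, Ctsk, Calcr, Ocstamp and Dcstamp summed to 5.97 to 10.1 CPM in basal WT and Mir182ΔM/ΔM libraries, to 4241 and 4765 CPM in WT after RANKL, and to 1061 and 1168 CPM in Mir182ΔM/ΔM after RANKL. After RANKL, Acp5, Ctsk, Ocstamp and Dcstamp were each lower in Mir182ΔM/ΔM than in WT, but Calcr was not, with means of 9.37 and 9.39 CPM. The libraries of the 2 genotypes after RANKL therefore differed in most of these osteoclast markers as well. In bulk RNA more cells of a type and more RNA per cell cannot be told apart.

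The WT RANKL libraries differed from the other 6 of the loss of function experiment in genes that had no part in choosing the members. Lyz2, the lysozyme M gene, was at 22.5 to 44.0 CPM in basal WT, basal Mir182ΔM/ΔM and RANKL-treated Mir182ΔM/ΔM libraries, but at 4117 and 4288 CPM in WT after RANKL and at 5783 to 7062 CPM in Control and Mir182mTg. Ifi202b, an interferon-inducible gene, was at 82.1 to 152 CPM in the first 3 conditions, at 0.972 and 1.12 CPM in WT after RANKL, and at most at 0.0908 CPM in Control and Mir182mTg. In both genes the WT RANKL libraries were thus on the side of the gain of function libraries and not of basal WT. The comparison of genotypes after RANKL, the RANKL response of WT and the difference between the responses all rest on these 2 libraries and cannot be computed without them. The RANKL response of Mir182ΔM/ΔM and the comparison of genotypes at the basal state do not use them in the difference. The labels give the same strain and Cre allele for all 12 libraries, but whether the mice behind the WT RANKL libraries shared both with the other mice was not tested, nor was what this difference contributes to the results.

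**Figure D1:**
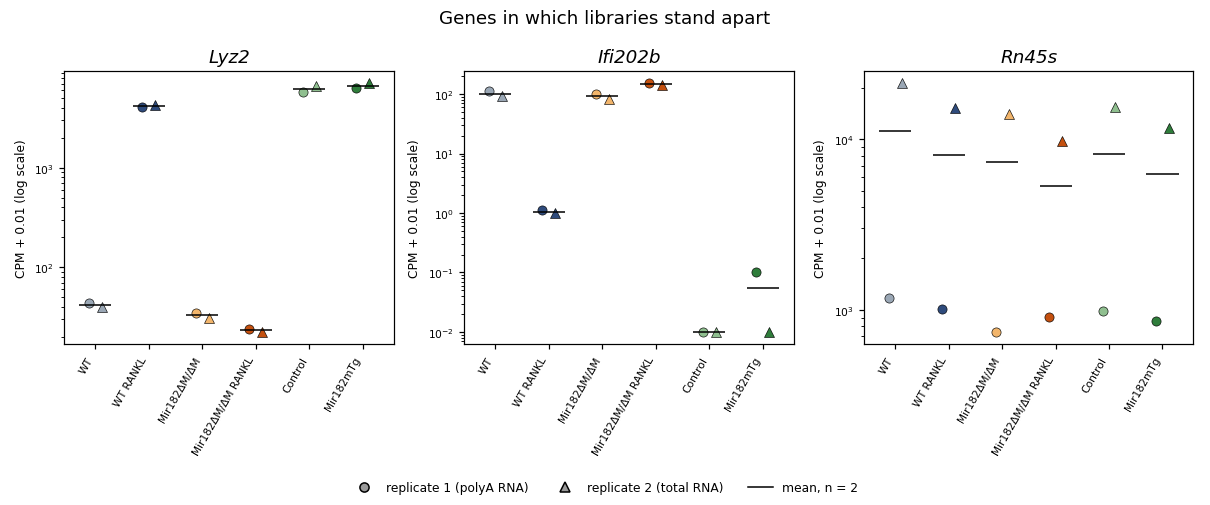
Levels of Lyz2, Ifi202b and the ribosomal RNA precursor gene Rn45s in the 12 libraries (points, CPM plus 0.01 on a log scale, with the mean of 2 replicates as a line). For Lyz2 and Ifi202b, WT after RANKL (4117 and 4288 CPM, and 0.972 and 1.12 CPM) sits with Control and Mir182mTg or between the levels, while Rn45s separates replicate 1 (742 to 1176 CPM) from replicate 2 (9778 to 21273 CPM) in every condition.

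The replicates were also batches. According to the labels, replicate 1 was made from polyA RNA and processed with TopHat and Cufflinks, and replicate 2 was made from total RNA and processed with HISAT2, HTSeq and edgeR. The published methods describe purification of polyA transcripts and name no difference in selection between replicates. Whether the selection of RNA differed is therefore not settled. B2m was lower in replicate 2 than in replicate 1 in every condition, at 0.702 to 0.779 times its level, whereas the ratio was 0.917 to 1.01 for Tapbp and 1.02 to 1.36 for the other 8 genes. Because each batch held every condition, ratios could also be taken within a replicate, and the fit with the replicate number as a block is given beside a result where it changes the call. Fits with a single library left out have no block. In them the condition with 1 library left holds 1 batch and is set against conditions with both, so a batch difference enters the values.

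Over the 6 conditions, 9 of the 10 genes had their highest level in Mir182ΔM/ΔM BMMs after RANKL, with both libraries above all 10 others. Tap2 was the exception, with its highest level in WT after RANKL. How many of all listed genes were highest in the same condition was not counted, so the share of 9 in 10 has no background here. Together the 10 genes took 0.829% and 0.754% of the reads in the Mir182ΔM/ΔM RANKL libraries, against 0.260% to 0.377% in all other libraries. Levels of different genes were compared per length, by RPKM (the CPM per kilobase of gene length), which was deposited for replicate 1 only. In basal WT, B2m was at 1957 RPKM, H2-K1 at 390 RPKM, H2-D1 at 283 RPKM and Tapbp at 99.0 RPKM. The other 6 genes lay between 18.2 RPKM for Tap1 and 61.2 RPKM for Psmb8. After RANKL in Mir182ΔM/ΔM, B2m reached 4677 RPKM, H2-K1 1023 RPKM, H2-D1 491 RPKM and Tapbp 338 RPKM.

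**Figure D2:**
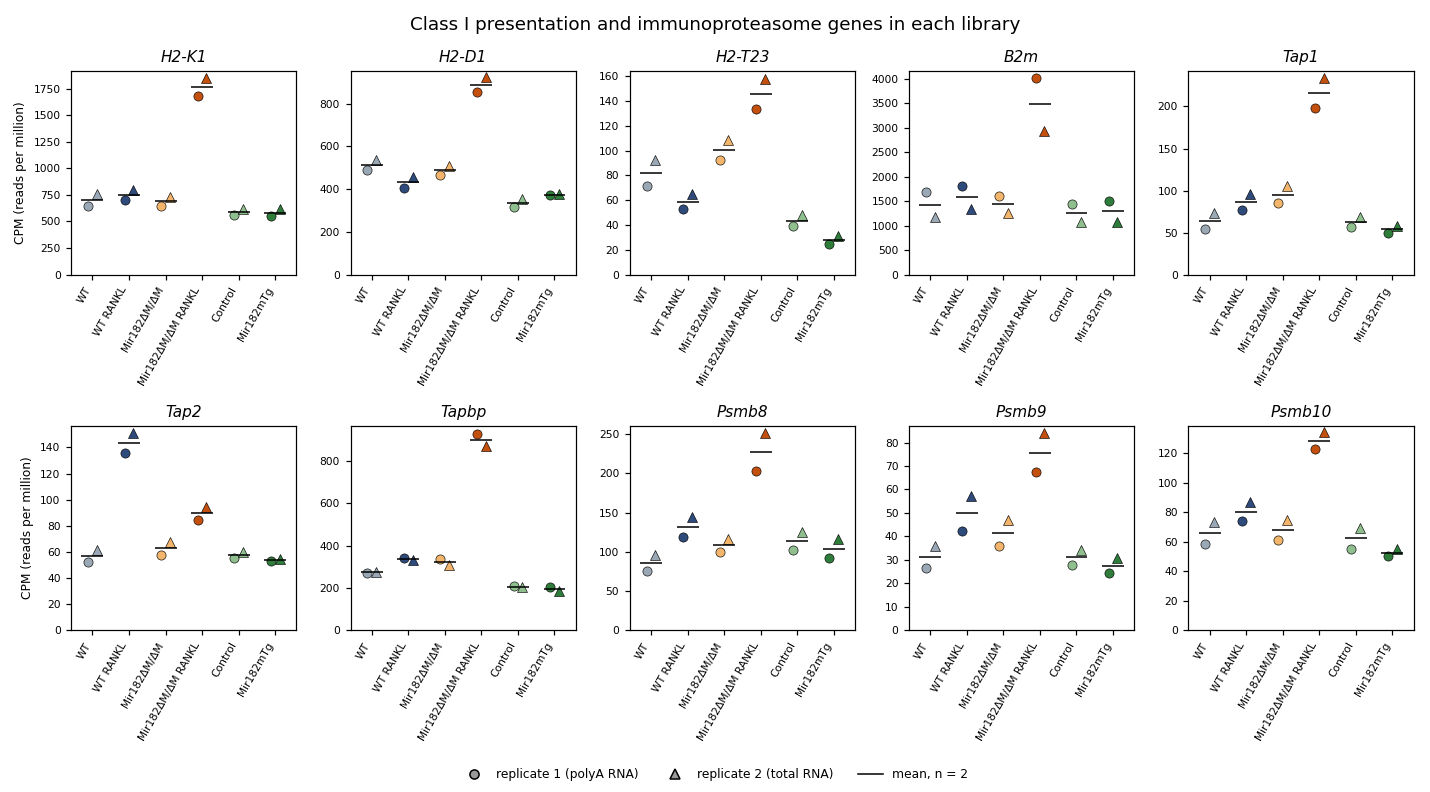
Level of each of the 10 genes in CPM (linear axes from 0) in the 12 libraries, with circles for replicate 1, triangles for replicate 2 and a line for the mean of 2. In 9 of 10 panels both Mir182ΔM/ΔM RANKL libraries are above all others, and in the Tap2 panel the WT RANKL libraries (136 and 151 CPM) are. The share of all genes with such an order was not counted.

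The first comparison asked how the genotypes differed after RANKL. It was made with limma on log2(CPM + 1) over 11691 genes, with p-values adjusted by the Benjamini-Hochberg method and a threshold of 0.05. Of the 10 genes, 8 were higher and 1 was lower in Mir182ΔM/ΔM than in WT, while of all genes tested 14.3% were called higher and 30.9% lower. The median log2 fold change of the 10 genes was 1.09 and that of all genes was -0.14. When the CPM were divided by TMM factors, which correct for RNA composition, the median of all genes moved up by 0.14, and 2403 genes were called higher and 2392 lower, against 1668 and 3607 without them. With the factors 9 of the 10 genes were higher and Tap2 remained lower.

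The heavy chains and B2m were about 2-fold higher in Mir182ΔM/ΔM than in WT after RANKL. H2-K1 was at 704 and 797 CPM in WT after RANKL and at 1684 and 1852 CPM in Mir182ΔM/ΔM after RANKL, in replicates 1 and 2. Its basal levels were 643 and 759 CPM in WT and 649 and 730 CPM in Mir182ΔM/ΔM. The WT RANKL values overlapped the basal ones and the Mir182ΔM/ΔM RANKL values stood clear of them. The log2 fold change of H2-K1 between the genotypes after RANKL was 1.24 ± 0.11 (SE; limma, adjusted p = 1.4e-04), with log2 ratios of 1.26 and 1.22 within replicates 1 and 2.

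H2-D1, the other classical heavy chain, was at 407 and 457 CPM in WT and at 853 and 924 CPM in Mir182ΔM/ΔM after RANKL. At the basal state it was at 491 and 537 CPM in WT and at 466 and 509 CPM in Mir182ΔM/ΔM. WT cells thus had less H2-D1 RNA after RANKL than before, without overlap, and Mir182ΔM/ΔM cells had more. The genotype difference after RANKL was 1.04 ± 0.09 on the log2 scale (SE; limma, adjusted p = 1.1e-04), and it was 1.07 and 1.01 within the replicates.

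H2-T23, whose product presents signal peptides to receptors of NK cells, had the lowest levels of the heavy chains among the 10 genes. It was at 52.7 and 65.1 CPM in WT and at 134 and 158 CPM in Mir182ΔM/ΔM after RANKL. Basal levels were 71.4 and 92.5 CPM in WT and 92.1 and 108 CPM in Mir182ΔM/ΔM, so it followed the same order as H2-D1 in WT, lower after RANKL than before. The genotype difference after RANKL was 1.30 ± 0.16 (log2, SE; limma, adjusted p = 7.0e-04). Of the distinct 50-base words in its annotated transcripts 14.5% also occur in another gene, as do 9.63% of those of H2-K1 and 12.8% of those of H2-D1, so counts of these 3 genes could be split differently by another counting.

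B2m, the light chain that all class I heavy chains need, was the most abundant of the 10 genes in every library. It was at 1813 and 1335 CPM in WT and at 4013 and 2932 CPM in Mir182ΔM/ΔM after RANKL, and at 1679 and 1179 CPM in WT and 1609 and 1252 CPM in Mir182ΔM/ΔM before. The replicates differed more for B2m than the basal genotypes did, but after RANKL the lower Mir182ΔM/ΔM library was still above the higher WT library. The genotype difference after RANKL was 1.14 ± 0.24 (log2, SE; limma, adjusted p = 0.0079), with 1.15 and 1.13 within the replicates. Without replicate 1 of Mir182ΔM/ΔM after RANKL it was 0.91 with an adjusted p of 0.052 in limma. No 50-base word of B2m occurs in another annotated gene.

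The 2 subunits of the peptide transporter went in opposite directions between the genotypes after RANKL. Tap1 was at 76.8 and 95.5 CPM in WT and at 198 and 233 CPM in Mir182ΔM/ΔM, a log2 difference of 1.32 ± 0.18 (SE; limma, adjusted p = 0.0011). Tap2 was at 136 and 151 CPM in WT and at 84.5 and 94.6 CPM in Mir182ΔM/ΔM, a log2 difference of -0.67 ± 0.12 (SE; limma, adjusted p = 0.0034). In neither gene did the genotypes overlap, and the ratios within replicates were 1.36 and 1.28 for Tap1 and -0.67 and -0.67 for Tap2. Basal levels were 53.8 and 73.2 CPM in WT and 85.1 and 105 CPM in Mir182ΔM/ΔM for Tap1, and 52.1 and 61.3 CPM against 57.6 and 67.6 CPM for Tap2. Both libraries of Mir182ΔM/ΔM were above those of WT for Tap1 before RANKL too, and for Tap2 they overlapped.

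The ratio of Tap1 to Tap2 CPM was 1.03 and 1.19 in basal WT, 0.567 and 0.631 in WT after RANKL, 1.48 and 1.56 in basal Mir182ΔM/ΔM and 2.35 and 2.47 in Mir182ΔM/ΔM after RANKL. It was thus lower with RANKL than without in WT libraries and higher with RANKL in Mir182ΔM/ΔM libraries, a description of 2 libraries each with no test. Per length, the RPKM ratio in replicate 1 was 0.478 in WT and 1.98 in Mir182ΔM/ΔM after RANKL. Of the exonic bases of Tap2, 14.1% and 4.36% are also annotated in the opposite-strand genes Gm15821 and Gm20496, whose reads could not be told apart from those of Tap2 in libraries without strand.

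Tapbp, the tapasin gene, had the largest genotype difference of the 10 genes after RANKL. It was at 343 and 330 CPM in WT and at 929 and 873 CPM in Mir182ΔM/ΔM, and at 272 and 274 CPM and 338 and 310 CPM in the basal libraries of these genotypes. The basal Mir182ΔM/ΔM values overlapped those of WT after RANKL, and the Mir182ΔM/ΔM RANKL values were far above both. The log2 difference after RANKL was 1.42 ± 0.07 (SE; limma, adjusted p = 9.1e-06). Of its exonic bases 24.9% are also annotated in Gm19412 on the opposite strand and 4.11% in Zbtb22 on the same strand.

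The immunoproteasome subunits differed less between the genotypes than the heavy chains did. Psmb8 was at 118 and 145 CPM in WT and at 203 and 251 CPM in Mir182ΔM/ΔM after RANKL, and at 74.8 and 96.3 CPM and 100 and 116 CPM before. Of the exonic bases of Psmb8, 14.7% are also annotated in the opposite-strand gene Gm20496, whose reads could not be told apart in libraries without strand. Psmb9 was at 42.3 and 57.4 CPM in WT and at 67.5 and 84.0 CPM in Mir182ΔM/ΔM after RANKL, and at 26.6 and 35.8 CPM and 35.8 and 47.1 CPM before. Psmb10 was at 73.7 and 86.8 CPM in WT and at 123 and 134 CPM in Mir182ΔM/ΔM after RANKL, and at 58.1 and 73.1 CPM and 60.8 and 74.8 CPM before. For each of the 3 genes the genotypes did not overlap after RANKL. The log2 difference was 0.78 ± 0.17 for Psmb8 (SE; limma, adjusted p = 0.0077) and 0.68 ± 0.15 for Psmb10 (adjusted p = 0.0090, limma). For Psmb9 it was 0.60 ± 0.22 and missed the threshold (limma, adjusted p = 0.057), but passed with the replicate block (adjusted p = 7.4e-10, limma) and with TMM factors (0.75, adjusted p = 0.032, limma). Without replicate 2 of Mir182ΔM/ΔM after RANKL the adjusted p was 0.0504 for Psmb8 and 0.055 for Psmb10 in limma, and without replicate 1 of WT after RANKL it was 0.053 for Psmb10.

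**Figure D3:**
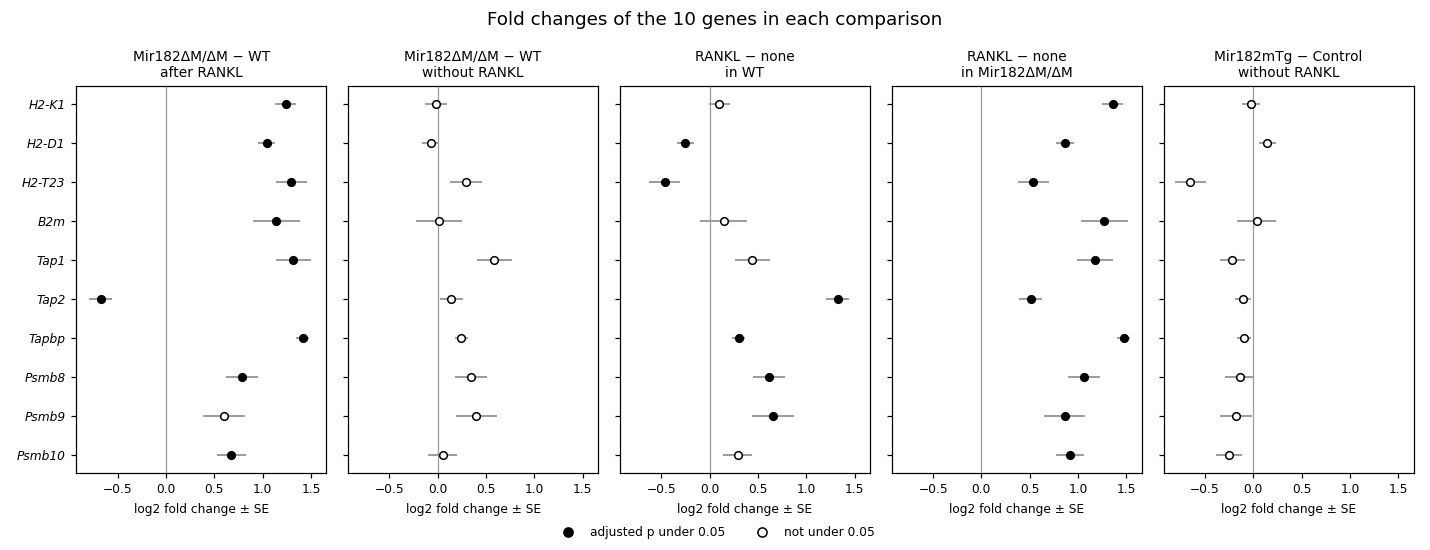
Log2 fold change with its standard error for the 10 genes in 5 comparisons (limma on log2(CPM + 1) in the first 4 panels, edgeR in the last), on one common axis, with filled points for an adjusted p under 0.05. After RANKL, 8 genes are higher and Tap2 is lower in Mir182ΔM/ΔM, all 10 are filled for RANKL in Mir182ΔM/ΔM, and none is filled at the basal state. The fits shown have no replicate block, and with it some of the genes are called at the basal state too. The panels for the genotypes after RANKL and for RANKL in WT rest on the WT RANKL libraries, which stood apart in Lyz2 and Ifi202b.

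Set against the subunits they replace, the immunoproteasome genes were highest in Mir182ΔM/ΔM after RANKL. The ratio of Psmb8 to Psmb5 CPM was 5.58 and 4.97 there, 4.13 and 3.20 in WT after RANKL, and 2.65 to 4.24 in the basal WT and Mir182ΔM/ΔM libraries. The ratio of Psmb9 to Psmb6 was 0.418 and 0.495 in Mir182ΔM/ΔM after RANKL, 0.269 and 0.337 in WT after RANKL, and 0.173 to 0.292 in the basal libraries of both. In both pairs the Mir182ΔM/ΔM RANKL libraries were above all others.

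Psmb10 to Psmb7 differed from these pairs in WT, where the ratio was lower after RANKL. It was 0.689 and 0.787 in basal WT, 0.489 and 0.497 in WT after RANKL, and 0.988 and 0.916 in Mir182ΔM/ΔM after RANKL. Psmb7 itself rose with RANKL in WT, from 84.3 and 92.9 CPM to 151 and 175 CPM (log2 fold change 0.87 ± 0.12, SE; limma, adjusted p = 5.0e-04). Between the genotypes after RANKL none of Psmb5, Psmb6 and Psmb7 passed the test, with log2 differences of 0.25 ± 0.32, 0.02 ± 0.07 and -0.26 ± 0.12 (SE). Per length, the RPKM ratio in replicate 1 of Mir182ΔM/ΔM after RANKL was 3.97 for Psmb8 to Psmb5, 0.537 for Psmb9 to Psmb6 and 0.754 for Psmb10 to Psmb7.

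**Figure D4:**
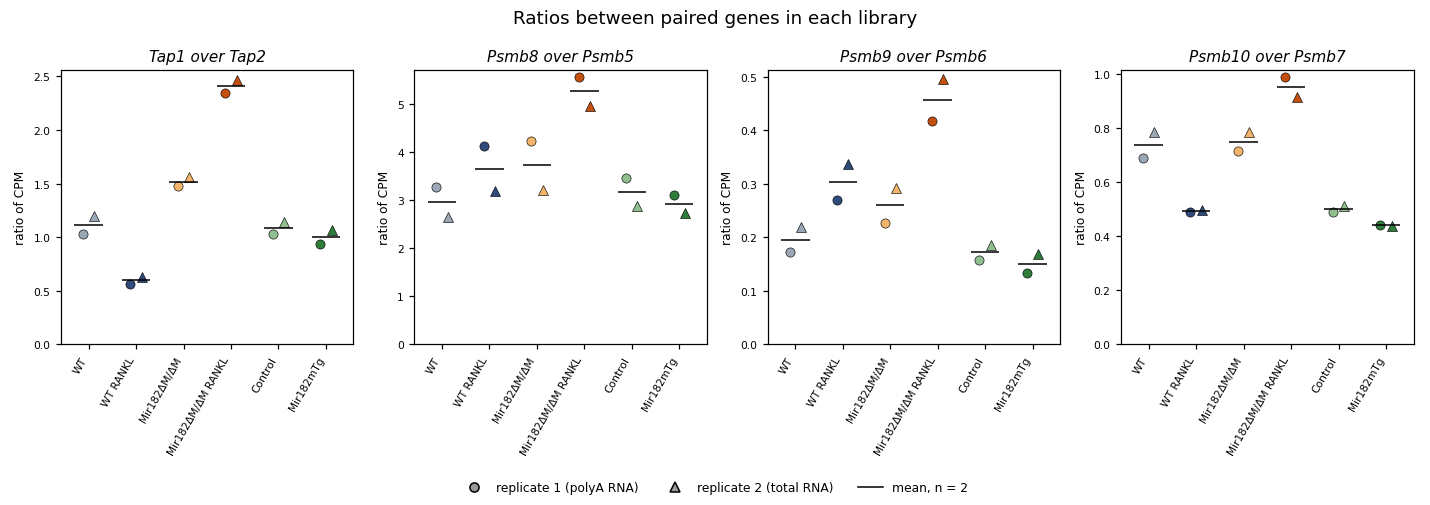
Ratio of CPM between paired genes in each library (linear axes from 0, points for the 2 replicates, line for their mean). Tap1 over Tap2 is lowest in WT after RANKL (0.567 and 0.631) and highest in Mir182ΔM/ΔM after RANKL (2.35 and 2.47), where the 3 ratios of immunoproteasome to constitutive subunits are highest too.

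The RANKL response of Mir182ΔM/ΔM BMMs, which does not use the WT RANKL libraries in its difference, included all 10 genes. All 10 were higher with RANKL (limma), against 30.4% of all genes called higher and 26.4% lower, and their median log2 fold change was 0.99 against 0.05 for all genes. The largest increases were those of Tapbp with 1.47 ± 0.07 (SE; limma, adjusted p = 3.3e-06), H2-K1 with 1.36 ± 0.11, B2m with 1.27 ± 0.24 and Tap1 with 1.18 ± 0.18. Psmb8 rose by 1.06 ± 0.17, Psmb10 by 0.92 ± 0.15, H2-D1 by 0.86 ± 0.09 and Psmb9 by 0.86 ± 0.22 on the log2 scale. The smallest were H2-T23 with 0.54 ± 0.16 (limma, adjusted p = 0.026) and Tap2 with 0.51 ± 0.12 (limma, adjusted p = 0.0085). H2-T23, Tap2 and Psmb9 missed the threshold without replicate 1 of basal Mir182ΔM/ΔM (limma, adjusted p = 0.13, 0.055 and 0.070) or without replicate 2 of Mir182ΔM/ΔM after RANKL (limma, adjusted p = 0.14, 0.056 and 0.074), and the other 7 genes remained higher without any single library.

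The RANKL response of WT BMMs was smaller in most of the genes and mixed in direction. Of the 10 genes 4 were higher and 2 were lower (limma), which is close to the 40.6% of all genes called higher and 22% called lower. Tap2 rose 2.51-fold (log2 fold change 1.33 ± 0.12, SE; limma, adjusted p = 6.6e-05), Psmb9 by 0.66 ± 0.22, Psmb8 by 0.62 ± 0.17 and Tapbp by 0.30 ± 0.07. H2-D1 fell by 0.25 ± 0.09 and H2-T23 fell by 0.47 ± 0.16 on the log2 scale. Tap1 (0.44 ± 0.18), Psmb10 (0.29 ± 0.15), B2m (0.15 ± 0.24) and H2-K1 (0.10 ± 0.11) did not pass.

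These WT calls depended on how the libraries were scaled. TMM factors moved the median of all genes down by 0.20 in this comparison, with 3352 genes higher and 3569 lower against 4741 and 2571 without them. With the factors, Tap2 alone of the 10 genes was higher, H2-D1 and H2-T23 stayed lower, and H2-K1 and B2m changed sign to -0.11 and -0.06 without passing. With the replicate block and no factors, 8 genes were higher and 2 lower, against 52.8% and 29.0% of all genes in that fit, H2-K1 among the higher ones at 0.10, while with the block and the factors together H2-K1 was called lower at -0.11 (limma, adjusted p = 0.0019). Without replicate 1 of basal WT, Psmb8 and Psmb9 had no call at 0.44 and 0.45, and without replicate 2 of WT after RANKL none at 0.48 and 0.44. Without replicate 2 of basal WT, H2-D1 and H2-T23 were at -0.19 and -0.28, and without replicate 1 of WT after RANKL at -0.17 and -0.32, with no call. H2-D1 also missed the threshold without any single one of the 4 Mir182ΔM/ΔM libraries, with a log2 fold change of -0.25 each time (limma, adjusted p = 0.052 to 0.053).

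The genotype by RANKL interaction tested the difference between the 2 responses directly. It was positive for H2-K1, H2-D1, H2-T23 and Tapbp and negative for Tap2, so 4 genes were called higher and 1 lower, against 7.44% and 17.1% of all genes (limma). The difference of the responses was 1.26 ± 0.16 for H2-K1 (log2, SE; limma, adjusted p = 0.0015), 1.17 ± 0.10 for Tapbp (limma, adjusted p = 2.4e-04) and 1.11 ± 0.13 for H2-D1 (limma, adjusted p = 9.4e-04). For H2-T23 it was 1.0 ± 0.23 (limma, adjusted p = 0.019), and this call was lost without replicate 1 of basal Mir182ΔM/ΔM (0.89, adjusted p = 0.065 in limma), without replicate 1 of WT after RANKL (0.85, adjusted p = 0.062 in limma) and without replicate 2 of Mir182ΔM/ΔM after RANKL (0.89, adjusted p = 0.069 in limma). For Tap2 it was -0.81 ± 0.17 (limma, adjusted p = 0.012).

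B2m (1.13 ± 0.34; limma, adjusted p = 0.052), Tap1 (0.73 ± 0.26), Psmb10 (0.63 ± 0.21), Psmb8 (0.44 ± 0.23) and Psmb9 (0.20 ± 0.31) did not pass. With the replicate block all 5 of them passed as higher, Psmb9 with an adjusted p of 0.018 (limma), which makes 9 genes higher and Tap2 lower, against 16.1% and 42.8% of all genes in that fit. TMM factors moved the median of all genes up by 0.16 here, with 1222 genes higher and 1287 lower against 870 and 2005, and 6 of the 10 genes were then higher.

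Before RANKL, none of the 10 genes differed between Mir182ΔM/ΔM and WT in limma, against 2.71% of all genes called higher and 1.10% lower, and none did with edgeR on the reads recovered from the CPM. At an unadjusted p under 0.05 there were 2, Tap1 with 0.59 ± 0.18 (limma, adjusted p = 0.17) and Tapbp with 0.24 ± 0.07 (limma, adjusted p = 0.12). The share of all genes at that unadjusted threshold was not counted, so these 2 have no background. The median log2 difference of the 10 genes was 0.19 and that of all genes 0.01. With the replicate block, Tap1, Psmb9, Psmb8, H2-T23, Tapbp and Tap2 were higher, by 0.59 to 0.14 on the log2 scale, and H2-D1 was lower, at -0.07 (limma, adjusted p = 0.044), while of all genes that fit called 18.6% higher and 12.7% lower. H2-K1 (-0.02 ± 0.11), B2m (0.01 ± 0.24) and Psmb10 (0.05 ± 0.15) had no call in either fit.

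Overexpression of Mir182 was compared with Control at the basal state. In Control and Mir182mTg libraries, H2-K1 was at 561 and 612 CPM and at 547 and 614 CPM, and B2m at 1433 and 1079 CPM and at 1506 and 1080 CPM. These values overlapped. H2-T23 was at 38.9 and 48.1 CPM in Control and at 24.7 and 31.1 CPM in Mir182mTg, without overlap, and H2-D1 was at 317 and 356 CPM in Control and at 371 and 379 CPM in Mir182mTg. The quasi-likelihood test of edgeR over 12081 genes called none of the 10 genes, against 0.0993% of all genes called higher and 0.157% lower. At an unadjusted p under 0.05 there was 1, H2-T23 with -0.65 ± 0.16 (log2, SE; edgeR, adjusted p = 0.37), and the share of all genes at that threshold was not counted. DESeq2 called H2-T23 lower (-0.66, adjusted p = 0.020), and limma called none. Without replicate 1 of Control, edgeR gave -0.80. That fit sets replicate 2 of Control alone against both Mir182mTg replicates. H2-T23 was 1.18 to 1.30 times as high in replicate 2 as in replicate 1, so -0.80 holds a batch difference too. DESeq2 called 0.424% of all genes higher and 0.498% lower. The neutrophil markers, higher in the Mir182mTg libraries as given above, moved with this comparison, and their part in it was not tested.

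With the replicate block, H2-T23 (-0.65), Psmb10 (-0.25), Tap1 (-0.22), Psmb9 (-0.18) and Psmb8 (-0.14) were lower and H2-D1 (0.15) was higher in Mir182mTg, with adjusted p between 2.9e-07 and 0.037 in edgeR, which called 6.94% of all genes higher and 8.15% lower in that fit. Without the block the fold change was negative for 8 of the 10 genes and positive for H2-D1 and B2m. The median was -0.12 against -0.0016 for all genes, and the share of all genes with a negative value was not counted. The sign of H2-K1, B2m and Psmb8 changed when a single library was left out, which leaves a condition with 1 batch. Within replicates 1 and 2 the log2 ratios were -0.037 and 0.0048 for H2-K1, 0.072 and 0.0024 for B2m, and -0.15 and -0.11 for Psmb8. Tap1 was at 56.6 and 68.1 CPM in Control and at 49.9 and 58.1 CPM in Mir182mTg, and Tapbp at 209 and 202 CPM against 202 and 186 CPM. The loss and gain of function libraries shared no sample, and a comparison between the experiments was not made.

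Other genes of the class I route gave a fuller picture. Of 27 listed, 24 could be tested. H2-Q6 and H2-Q7 were listed at 0 in all libraries, and H2-Q10 was under the filter, with at most 0.644 CPM. After RANKL 9 of the 24 were higher and 5 lower in Mir182ΔM/ΔM than in WT, against 14.3% and 30.9% of all genes, with a median log2 difference of 0.21 against -0.14 for all genes. With RANKL in Mir182ΔM/ΔM 11 were higher and 3 lower, against 30.4% and 26.4% of all genes. With RANKL in WT 2 were higher and 8 lower, against 40.6% and 22%. Between the basal genotypes 1 was higher, against 2.71%. In the interaction 8 were higher and 1 lower, against 7.44% and 17.1%. None was called for Mir182mTg against Control by edgeR, while DESeq2 called 1 higher. In edgeR 4 had an unadjusted p under 0.05, and the share of all genes at that threshold was not counted.

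The higher calls of this list between the genotypes after RANKL numbered 8 to 10 with other filters, pseudocounts and scalings and with any single library left out, and the lower calls 1 to 5. TMM factors left 1 of the 5 lower calls between the genotypes after RANKL, that of Cd1d1, as did quantile normalization and edgeR on the recovered reads. The calls of all genes moved too, from 1668 higher and 3607 lower in the reported fit. They were 1429 to 1781 higher and 2997 to 3699 lower with the other filters and pseudocount. With TMM factors, quantile normalization or edgeR they were 2298 to 2481 higher and 2392 to 2481 lower. In WT with RANKL the higher calls went from 2 to 1 with TMM factors, and the lower calls from 8 to 5 without replicate 1 of WT after RANKL. With the replicate block 14 of the 24 genes were higher between the genotypes after RANKL, against 23.4% of all genes in that fit. At the basal state 7 were higher (18.6% of all genes), with RANKL in WT 7 were higher (52.8%), and with RANKL in Mir182ΔM/ΔM 7 were lower (36.3%). In the interaction 5 were lower (42.8%), and in Mir182mTg 3 were higher (6.94%) and 6 lower (8.15%). With the block and the factors together, 18 were higher after RANKL between the genotypes (34.7% of all genes), 17 lower with RANKL in WT (40.5%) and 15 higher in the interaction (26.6%).

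Among the other heavy chains, 4 of 7 tested were higher and 2 lower in Mir182ΔM/ΔM after RANKL. H2-T24, a nonclassical heavy chain gene, was at 15.9 and 16.7 CPM in WT and at 121 and 115 CPM in Mir182ΔM/ΔM after RANKL, and at 27.2 and 25.0 CPM and 50.4 and 47.0 CPM before. It was the 1 gene of the list that passed the test between the genotypes before RANKL, by 0.87 ± 0.08 (log2, SE; limma, adjusted p = 0.0024), and the difference after RANKL was 2.78 ± 0.08 (limma, adjusted p = 1.1e-06). H2-Q4 was at 29.1 and 38.4 CPM in WT and at 149 and 173 CPM in Mir182ΔM/ΔM after RANKL, a difference of 2.23 ± 0.16. H2-T10 differed by 1.80 ± 0.13 and H2-T22, at 0.383 to 3.07 CPM over all libraries, by 0.90 ± 0.26. The call of H2-T22 was lost without either WT RANKL library (0.82 and 0.98, limma, adjusted p = 0.11 and 0.072) and without replicate 2 of Mir182ΔM/ΔM after RANKL (0.53).

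H2-T10 was also the gene that DESeq2 called in Mir182mTg (1.77, adjusted p = 5.2e-07). It was at 2.49 and 4.42 CPM in Control and at 10.5 and 13.2 CPM in Mir182mTg, without overlap, and edgeR gave 1.78 ± 0.28 (log2, SE; adjusted p = 0.12). In edgeR the gene passed when any single one of the 4 libraries was left out, with 1.41 to 2.24, when the filter on low values was dropped, and with the replicate block.

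Mr1 and Cd1d1, class I-like genes whose products present other ligands than peptides, were lower with RANKL. Mr1, which presents vitamin B metabolites, was at 40.1 and 31.2 CPM in basal WT and at 5.27 and 5.11 CPM after RANKL, and at 33.7 and 29.0 CPM and then 3.94 and 3.34 CPM in Mir182ΔM/ΔM. It fell with RANKL in both genotypes, with log2 fold changes of -2.56 ± 0.14 in WT and -2.80 ± 0.14 in Mir182ΔM/ΔM. The call of Mr1 between the genotypes after RANKL (-0.42) was lost with TMM factors (-0.29, limma, adjusted p = 0.14), with both changed filters, and without 6 of the 8 libraries left out one at a time. Cd1d1, which presents lipids, fell by 1.20 ± 0.14 in WT and by 1.96 ± 0.14 in Mir182ΔM/ΔM. After RANKL it was at 2.12 and 2.34 CPM in WT and at 0.690 and 0.787 CPM in Mir182ΔM/ΔM, and its interaction was -0.76 ± 0.20 (limma, adjusted p = 0.031). The interaction was -0.64 with no call with TMM factors (limma, adjusted p = 0.065), and had none without any one of 6 of the 8 libraries, with -0.59 to -0.81.

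The regulators of class I transcription divided into those that were higher and those that were lower in Mir182ΔM/ΔM. Nlrc5, the class I transactivator, was at 36.6 and 41.2 CPM in WT and at 155 and 191 CPM in Mir182ΔM/ΔM after RANKL. It fell with RANKL in WT, by 0.79 ± 0.13, and rose in Mir182ΔM/ΔM, by 0.80 ± 0.13, with an interaction of 1.59 ± 0.19 (limma, adjusted p = 0.0011). Irf1, a transcription factor of the interferon response, was 0.61 ± 0.08 higher, and Irf2 (0.04 ± 0.18) had no call. Rfx5, Rfxap and Rfxank, which encode the subunits of a factor that binds MHC promoters, were lower, at -0.46 ± 0.13, -0.34 ± 0.10 and -0.40 ± 0.09. With TMM factors they were at -0.31, -0.20 and -0.26 and none passed (limma, adjusted p = 0.10, 0.15 and 0.054), and without replicate 2 of Mir182ΔM/ΔM after RANKL none passed either, at -0.33, -0.36 and -0.33.

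In peptide loading, trimming and cutting the calls were spread over a part of the genes. Tapbpl, a relative of tapasin, was 0.94 ± 0.15 and Erap1, which trims peptides, 1.18 ± 0.08 higher on the log2 scale in Mir182ΔM/ΔM after RANKL. Calr, Canx and Pdia3, the general chaperones of the loading complex, had differences of 0.18 ± 0.20, 0.00 ± 0.11 and 0.04 ± 0.14 with no call. Of the proteasome activator genes, Psme1 was higher by 0.49 ± 0.07, and Psme2 (0.57 ± 0.29; limma, adjusted p = 0.15) had no call between the genotypes but rose by 1.16 ± 0.29 with RANKL in Mir182ΔM/ΔM. Pomp, a proteasome assembly factor, had a difference of 0.12 ± 0.15 with no call.

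**Figure D5:**
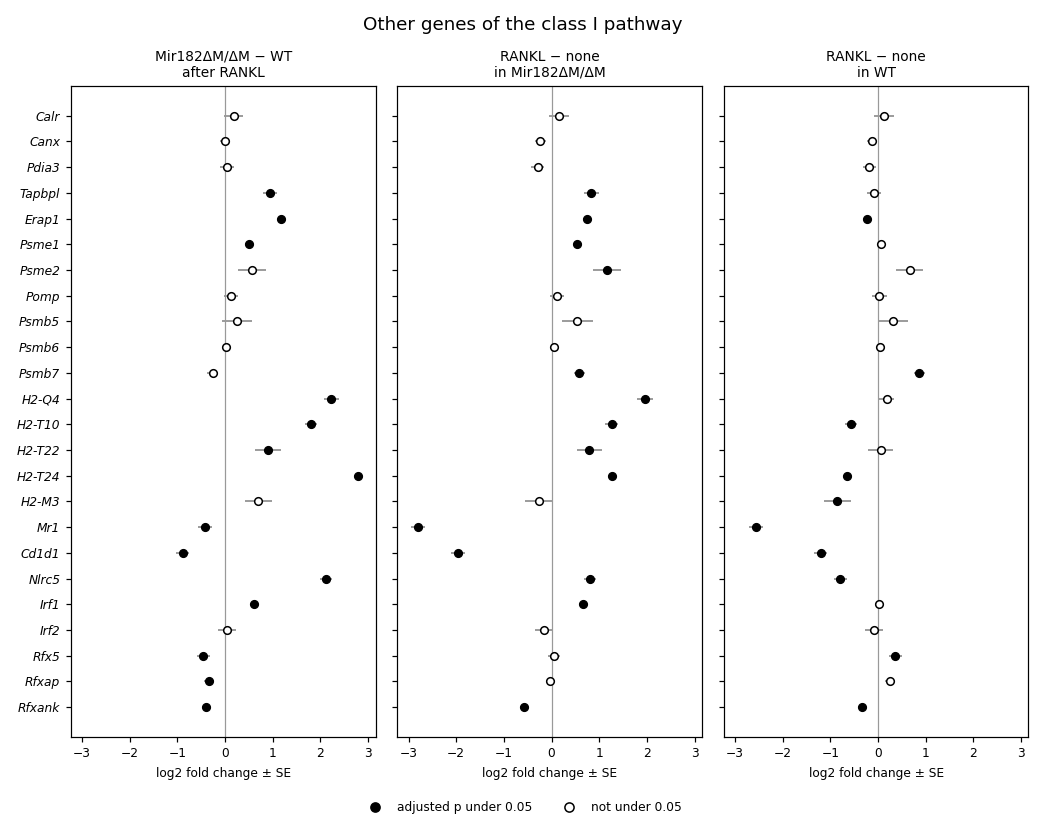
Log2 fold change with its standard error (limma on log2(CPM + 1)) for the 24 other genes of the class I route that could be tested, in 3 comparisons on one axis, with filled points for an adjusted p under 0.05. After RANKL, H2-T24 (2.78), H2-Q4 (2.23) and Nlrc5 (2.12) are farthest to the right between the genotypes, and Mr1 (-2.56 and -2.80) is farthest to the left for RANKL in either genotype.

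Within the 10 genes the pattern over the 12 libraries was shared to different degrees. Pearson's r of log2(CPM + 1) with the mean of the other 9 genes, each scaled to the same mean and SD, was 0.975 for Tap1, 0.974 for Psmb10, 0.968 for Tapbp and 0.966 for H2-K1. It was lowest for Tap2 (0.509), B2m (0.769) and H2-T23 (0.779). Without the 2 Mir182ΔM/ΔM RANKL libraries, which lay farthest from the rest, r over the remaining 10 libraries was 0.878 for Tap1 and 0.703 for Tap2, but 0.0081 for B2m and 0.376 for Psmb8.

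Outside the 10 genes, the 5 genes most like their mean among 8842 genes with a mean of at least 10 CPM were Slfn2 (r = 0.986), Psme1 (0.982), Gbp3 (0.979), Mapk11 (0.974) and Tmcc3 (0.973). Without the same 2 libraries, r was 0.951, 0.915, 0.908, 0.948 and 0.924 in this order. Gbp3, which encodes an interferon-inducible GTPase, had a mean of 108 CPM in Mir182ΔM/ΔM after RANKL and of 18.8 CPM in WT after RANKL, and Slfn2 had means of 517 and 254 CPM. The libraries share batches and conditions, so these correlations describe the 12 libraries and carry no p-value.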

How the data were processed

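RNA-seq of BMMs was measured in 12 libraries (6 conditions, 2 replicates each), and groups were taken from the labels. Values of the WT and Mir182ΔM/ΔM samples were deposited by the authors as CPM per gene, and every one came out as a whole number of reads within 0.01 read. For the gain of function samples raw counts per gene were deposited, and for replicate 1 of all samples RPKM too. The submitters' processing notes name TopHat, Cufflinks, HISAT2, HTSeq, edgeR and mm10, and their versions are not given in the sources used here. Totals are over listed genes, 24951280 to 33050619 per library. The tables list 27 genes under dates in place of symbols, and none of these is named here.

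Log2(CPM + 1) of the 8 loss of function samples was fitted with limma 3.58.1 (R 4.3.3, trend on the mean, one fit of 4 groups) over genes that reached 1 CPM in 2 or more samples. SE values come from the moderated fit, and fold changes on this scale understate the change of low genes. Raw counts of the 4 gain of function samples were tested with the quasi-likelihood test of edgeR 4.0.16 (TMM, filterByExpr). Calls needed a Benjamini-Hochberg adjusted p under 0.05, two-sided. Both fits were tested on simulated data, for the genotypes after RANKL and for Mir182mTg against Control. The simulated replicates had no batch difference, so that test does not show how the fits behave at the spread of these libraries. Alternatives were the filter, the pseudocount, the scaling, the tool (DESeq2 1.42.0 for the raw counts), a replicate block and leaving out each library.

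The replicate numbers pair the samples. The labels name polyA RNA for replicate 1 and total RNA for replicate 2, with different software. The log ratios of replicate 2 to 1 of the 6 conditions correlated across genes with r between 0.686 and 0.754 in every pair of conditions. The replicates of a condition differed by far more than sampling noise (mean chi-square per gene 40.9 to 75.8).

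The 10 members and the lists of 27 other class I genes and of cell type markers were chosen with earlier results of these data known. The text names all members, the genes of the 27 that passed or are needed to account for a group, the sample checks Lyz2, Ifi202b, Rn45s and Mir182, and the 5 other genes with the highest Pearson correlation with the scaled mean of the members among genes with a mean of at least 10 CPM. Promoters and miR-182 come from RefSeq (GRCm38.p6), and positions and transcripts from GENCODE vM21 on the same build as the files. The loss of function and gain of function tables were tested separately. A result for another gene that was listed is not reported here.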

Additional observations from a re-analysis of the deposited data

Results flagged for a closer look

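Of the 10 genes, 5 responded to RANKL differently in Mir182ΔM/ΔM and WT BMMs by the interaction term of limma (2 libraries per condition, positive values meaning a higher response in Mir182ΔM/ΔM). They were 4 genes called higher and 1 called lower, against 7.44% and 17.1% of all genes. The difference of the log2 responses was 1.26 ± 0.16 (SE; adjusted p = 0.0015, limma) for the heavy chain gene H2-K1, 1.11 ± 0.13 (adjusted p = 9.4e-04, limma) for H2-D1 and 1.0 ± 0.23 (adjusted p = 0.019, limma) for H2-T23. It was 1.17 ± 0.10 (adjusted p = 2.4e-04, limma) for the tapasin gene Tapbp and -0.81 ± 0.17 (adjusted p = 0.012, limma) for the transporter gene Tap2. For H2-D1 and H2-T23 the responses had opposite signs, negative in WT and positive in Mir182ΔM/ΔM, and Tap2 rose in both genotypes and more in WT. All 5 differences rest on the 2 WT RANKL libraries, which stood apart in Lyz2 and Ifi202b, and the part of this in the differences was not tested.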

How the results depend on the processing

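Of 178 recomputed counts of called members, 154 stayed within 1.5 times the reported count, and of 890 recomputed log2 fold changes of members 772 kept their direction and their side of the threshold. With the replicate block, alone or with TMM factors, 6 members were higher and 1 lower between the basal genotypes and 9 were higher in the interaction. The block alone called 18.6% of all genes higher and 12.7% lower between the basal genotypes, and 16.1% higher in the interaction. With TMM factors as well, 1948 of 11691 genes were higher and 1712 lower at the basal state, and 26.6% were higher in the interaction. For RANKL in WT, where 4 were higher and 2 lower, 1 was higher with TMM factors and with edgeR on recovered reads, 2 were higher and 1 lower with quantile normalization, 8 were higher with the block, and 0 were lower with no filter. Of 11691 genes, 3352 were higher with TMM factors and 52.8% with the block, and 3405 were higher and 3627 lower with quantile normalization. By edgeR 3536 of 12579 genes were higher, and with no filter 2679 of 16791 were lower. Leaving out single libraries gave 2 to 6 higher and 0 to 2 lower there, and 0 to 1 lower in Mir182mTg. In Mir182mTg 1 was lower with DESeq2, against 0.498% of all genes. With the block 1 member was higher and 5 lower there, against 6.94% and 8.15% of all genes. The block changed no other call of a member than those given here and beside the results. The cause of these changes was not tested.

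Some fold changes with no call in the reported fits changed sign. Between the basal genotypes B2m was at -0.0027 with TMM factors, with and without the block, -0.045 with quantile normalization and -0.014 with edgeR, and with single libraries left out it was -0.24 to 0.27, H2-K1 -0.14 to 0.099 and Psmb10 -0.11 to 0.21. For RANKL in WT, H2-K1 and B2m were at -0.11 and -0.065 with TMM factors, with and without the block, and at -0.11 and -0.071 with edgeR, and with single libraries left out at -0.020 to 0.22 and -0.11 to 0.40. So were Psmb9 in the interaction, -0.014 to 0.42, and H2-K1 (-0.11 to 0.053), B2m (-0.23 to 0.26) and Psmb8 (-0.31 to 0.018) in Mir182mTg. With 1 library left in a condition, that library was assumed to vary like the other conditions. It also came from 1 batch and was set against conditions with both, so the values with a library left out hold a batch difference as well. With 2 replicates the spread between libraries, not the read depth, limited the tests. In the fits without the block this spread includes the difference between the batches, which pairs the libraries across conditions.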
